A study of Rattus norvegicus with 12 samples.

Results

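*Rspo2* and *Wnt16* are 2 of the 17941 genes in the count table of a rat astrocyte study. Both were selected because they stood among the genes listed as higher in grey matter astrocytes (gmASTRs) than in white matter astrocytes (wmASTRs). Their difference between the groups is therefore given as a description, with no test. RNA was taken from 6 gmASTR and 6 wmASTR cultures of young adult female Wistar rats, without any genetic or drug treatment, after 20 days in culture. The gmASTR cultures came from cerebral cortex stripped of its meninges. For wmASTRs, the rest of the brain without the amygdala was used, so these cultures came mainly from white matter tracts but also from hippocampus, thalamus and basal ganglia. Cultures of both kinds were made together from the same animal, grown in serum-containing medium and passaged at least once with trypsin, which limits how far they stand for astrocytes in the brain. The 6 cultures per group were independent preparations.

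Wnt proteins are secreted ligands that bind Frizzled receptors and Lrp co-receptors. In the canonical branch this protects β-catenin from degradation, and β-catenin then acts with Tcf/Lef factors on target genes. R-spondins, the family of *Rspo2*, do not replace the ligand but make cells more responsive to it: they bind Lgr receptors and the membrane ubiquitin ligases Znrf3 and Rnf43, which otherwise remove Frizzled receptors from the cell surface. *Wnt16* encodes a Wnt ligand best known from bone. In the brain, Wnt signalling is known for its part in the specification and differentiation of oligodendrocyte lineage cells and in the formation of the blood-brain barrier.

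Library totals lay between 4920488 and 6356487 counts in gmASTRs and between 5363330 and 7207118 counts in wmASTRs. A count of 0 allows up to 3 counts, which is 0.416 to 0.610 CPM (the count scaled to a common library total) in these libraries. Such floors and Poisson intervals cover counting error only. For both genes described here, gmASTR replicate 5 was the lowest of its group and wmASTR replicate 3 the highest. Among the 5401 genes with a mean of at least 20 CPM in gmASTRs, replicate 5 was the lowest gmASTR library for 29.8%, and replicate 3 was the highest wmASTR library for 20.7%. The levels of *Rspo2* and *Wnt16*, their spread, the genes most like them and the number of Wnt pathway calls are given with and without these libraries. Of the astrocyte markers with a name, *Gja1* (connexin 43) was abundant in both groups, at 3658 to 5467 CPM in gmASTRs (median 4909) and 2212 to 5766 CPM in wmASTRs (median 4444). *Gfap*, the classical astrocyte filament gene, had no count in any gmASTR library and a median of 1.88 CPM in wmASTRs. By Western blot, the study detected GFAP protein in both kinds of culture, with more of it in wmASTRs. The water channel gene *Aqp4* had at most 0.813 CPM in gmASTRs.

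The 250 bases upstream of the annotated start of *Wnt16* are shown because they hold the start region of one of the genes described. They lie on the plus strand at chr4:51786478-51786727 in the RefSeq annotation of assembly GRCr8, which need not be the build on which the reads were counted, and capitals mark the motif CCAAT.
Wnt16 upstream region: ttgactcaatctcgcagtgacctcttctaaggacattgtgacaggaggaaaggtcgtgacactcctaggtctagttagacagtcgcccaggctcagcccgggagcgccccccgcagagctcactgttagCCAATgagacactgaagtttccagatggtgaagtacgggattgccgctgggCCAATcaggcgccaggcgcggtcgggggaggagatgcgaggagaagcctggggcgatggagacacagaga
The region held 2 CCAAT motifs, which begin at positions -121 and -70 before the start. Searched on both strands, at least 1 CCAAT was present in 34.0% and at least 2 in 9.42% of 33469 rat upstream regions of the same length. CTTTG, the core letters of Tcf/Lef motifs, was not found on either strand in this window and was present in 48.2% of the regions. The GC content of the window was 58.8%, against a median of 51.2% over all regions, and 27.9% of the regions had the same or a higher GC content. Only *Wnt16* of the pair was matched in the table of upstream regions.

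*Rspo2* (ENSRNOG00000037687), the gene for R-spondin 2, was the more abundant of the pair in gmASTRs. Its level in gmASTR replicates 1 to 6 was 87.8, 118, 204, 512, 32.2 and 331 CPM, from 432, 680, 1294, 2650, 170 and 1993 counts. In wmASTR replicates 1 to 6 it was 2.21, 3.66, 13.2, 0, 2.17 and 0 CPM, from 12, 22, 95, 0, 15 and 0 counts. All gmASTR libraries were above all wmASTR libraries, with gmASTR replicate 5 lowest in its group and wmASTR replicate 3 highest in the other. Group means were 214 ± 179 CPM (SD, n = 6) in gmASTRs and 3.54 ± 4.93 CPM (n = 6) in wmASTRs, a ratio of 60.5. The fitted log2 fold change was 5.76 with a standard error of 0.64. The nearest pair of libraries differed far less than the means, since gmASTR replicate 5 had 2.44 times the CPM of wmASTR replicate 3. Without these 2 libraries the means were 250.5 ± 174 and 1.61 ± 1.58 CPM (n = 5 each), the ratio of means was 156, and the lowest gmASTR library was 24.0 times the highest wmASTR library. wmASTR replicate 3 alone held 66.0% of the 144 *Rspo2* counts found in wmASTRs. In bulk RNA, fewer cells that express a gene and less of its RNA per cell cannot be told apart.

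*Wnt16* (ENSRNOG00000005781), the gene for the ligand, had a lower level but the same division between groups. Its level in gmASTR replicates 1 to 6 was 40.6, 60.6, 44.7, 85.6, 7.01 and 81.9 CPM, from 200, 350, 284, 443, 37 and 493 counts. In wmASTR replicates 1 to 6 it was 0, 0, 6.38, 2.99, 3.33 and 0 CPM, from 0, 0, 46, 17, 23 and 0 counts. Replicate 5 of the gmASTRs again had the lowest level of its group and replicate 3 of the wmASTRs the highest, as for *Rspo2*. Means were 53.4 ± 29.3 CPM (SD, n = 6) in gmASTRs and 2.12 ± 2.60 CPM (n = 6) in wmASTRs, a ratio of 25.2, with a fitted log2 fold change of 4.50 (standard error 0.63). The separation of the groups was narrow for *Wnt16*: gmASTR replicate 5 exceeded wmASTR replicate 3 by a factor of 1.10, and their 95% Poisson intervals of 4.94 to 9.66 CPM and 4.67 to 8.51 CPM overlapped. Without these libraries the means were 62.7 ± 20.7 and 1.26 ± 1.73 CPM (n = 5 each), a ratio of 49.6, and the lowest gmASTR library was 12.2 times the highest wmASTR library. Among all 15478 genes with a count, 277 (1.79%) had every gmASTR library above every wmASTR library, the pair included. The pair was chosen for being higher in gmASTRs, which favours such a separation but does not require it.

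**Figure D1:**
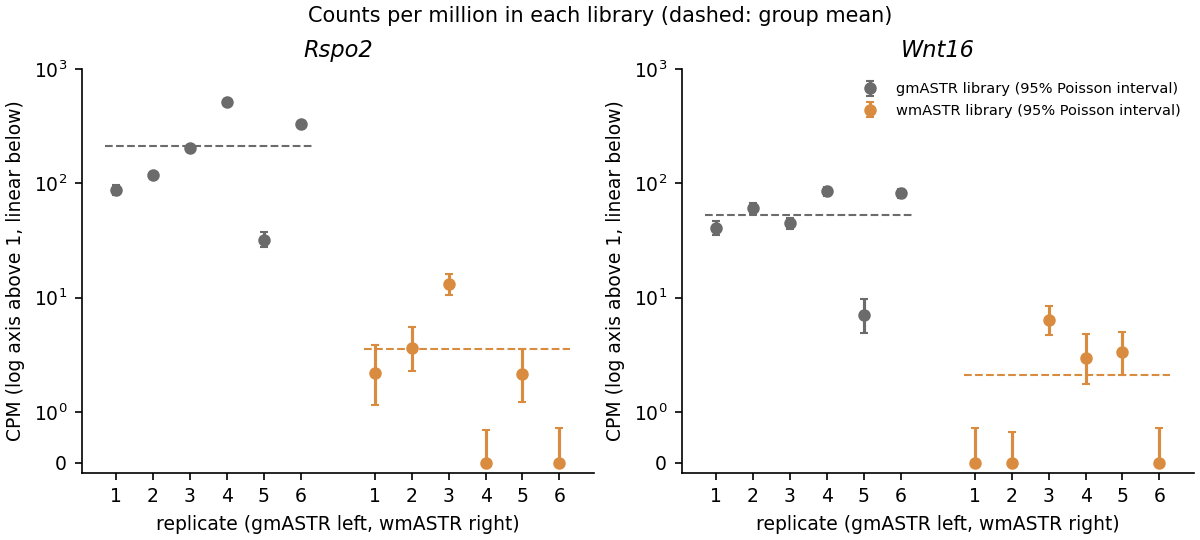
CPM of *Rspo2* (left) and *Wnt16* (right) in each library, on an axis that is logarithmic above 1 and linear below, with 95% Poisson intervals from the counts and dashed lines at the group means. gmASTR replicate 5 (32.2 and 7.01 CPM) and wmASTR replicate 3 (13.2 and 6.38 CPM) approach each other, and the other gmASTR libraries lie at 87.8 CPM or more for *Rspo2* and 40.6 CPM or more for *Wnt16*.

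In wmASTRs each gene had counts in some libraries and none in others, and the libraries without counts were not the same for both genes. *Rspo2* had counts without *Wnt16* in wmASTR replicates 1 and 2, with 12 and 22 *Rspo2* counts. *Wnt16* had 17 counts without *Rspo2* in wmASTR replicate 4. Replicate 6 had neither gene, and replicates 3 and 5 had both. The upper limits set by 0 counts lay between 0.499 and 0.559 CPM in the libraries concerned, so low levels could not be seen. This pattern also decided whether the genes were present in the smaller table of the study. Its 9394 genes were those that reached 2 counts in 11 or 12 of the libraries, without exception, whereas *Rspo2* reached 2 counts in 10 libraries and *Wnt16* in 9, so both were missing from it although their gmASTR levels were well above the floor.

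Both genes varied widely within gmASTRs, *Wnt16* mainly through replicate 5. *Rspo2* spanned 15.9-fold between its lowest and highest gmASTR library, with a coefficient of variation of 83.8%, and *Wnt16* spanned 12.2-fold, with 54.9%. The SD of log2(CPM + 1) over the gmASTR libraries was 1.42 for *Rspo2* and 1.27 for *Wnt16*. Only 18 of the 5401 genes (0.333%) had a larger SD than *Rspo2*, and 33 (0.611%) had a larger SD than *Wnt16*. Without replicate 5, *Rspo2* still spanned 5.83-fold (coefficient of variation 69.5%, SD 1.04, n = 5), with a larger SD in 23 genes (0.426%). *Wnt16* then spanned only 2.11-fold (33.0%, SD 0.48, n = 5), and 694 genes (12.8%) had a larger SD. Replicate 5 held 12.9% of the mean of the other gmASTR libraries for *Rspo2* and 11.2% for *Wnt16*. Replicate 4 had the highest CPM of both, 512 for *Rspo2* and 85.6 for *Wnt16*.

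The levels of *Rspo2* and *Wnt16* were correlated across gmASTR libraries, though less closely than those of many other genes were with each of them. Pearson's r of log2(CPM + 1) was 0.892 (n = 6, two-sided exact permutation p = 0.00833, adjusted over both groups 0.0167), and Spearman's rho was 0.943 (exact p = 0.0167, adjusted 0.0333). Without replicates 4 and 5, the libraries farthest from the median of *Rspo2*, r was 0.698 (n = 4, exact p = 0.333), but 4 libraries cannot give a p below 0.0833. Without replicate 5 alone, r was 0.815 and rho 0.9 (n = 5, exact permutation p = 0.108 and 0.0833), without replicate 6 alone r was 0.875 (n = 5, exact p = 0.05), and without replicate 4 alone r was 0.899 (n = 5, exact p = 0.0333). The genes changed places only in the middle of the order, since replicate 3 was above replicate 2 for *Rspo2* and below it for *Wnt16*. The number of *Rspo2* counts per *Wnt16* count was 2.16 and 1.94 in gmASTR replicates 1 and 2 and between 4.04 and 5.98 in replicates 3 to 6. In the libraries of wmASTRs with both genes it was 2.07 in replicate 3 and 0.652 in replicate 5. Within wmASTRs, r was 0.379 (n = 6, exact permutation p = 0.4) and rho was 0.277 (exact p = 0.625), and r was 0.189 without replicates 3 and 4. No relation was detectable there at these counts.

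**Figure D2:**
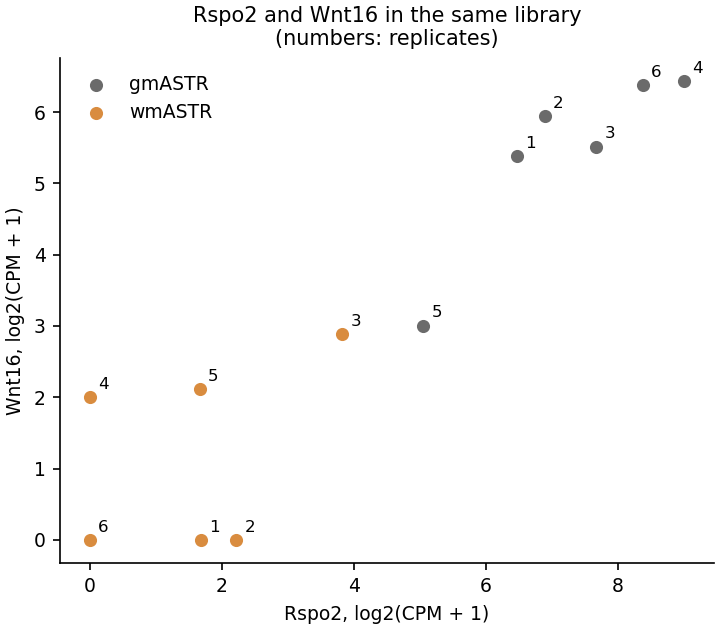
*Rspo2* against *Wnt16* in each library, both as log2(CPM + 1), with the replicate number beside each point. The gmASTR libraries run from replicate 5, which lies next to wmASTR replicate 3, up to replicates 4 and 6 (Pearson's r = 0.892 over the 6 gmASTR libraries), and 4 wmASTR libraries lie on an axis because 1 or both genes had 0 counts.

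Several genes followed *Rspo2* over the gmASTR libraries, which is given as a description of 6 libraries that share the low replicate 5. Among 807 other genes with a name and at least 20 CPM in gmASTRs, the closest by Pearson's r of log2(CPM + 1) were *Arf5*, a small GTPase of the secretory pathway (r = 0.997), *Il11ra1*, an interleukin 11 receptor (0.993), *Efemp1*, an extracellular matrix glycoprotein (0.992), *Cct4*, a chaperonin subunit (0.992), and *Fgfr1*, a fibroblast growth factor receptor (0.991). A close fit on this scale did not mean a similar range. *Arf5* ran only from 148 to 269 CPM in gmASTRs and *Efemp1* from 22.9 to 113 CPM, against 32.2 to 512 CPM for *Rspo2*. An r above 0.9 with *Rspo2*, closer than that of *Wnt16*, was found for 99 (12.3%) of the genes compared. Without replicate 5 (n = 5) it was found for 88 (10.9%), and *Arf5* (0.996), *Il11ra1* (0.988), *Efemp1* (0.984), *Cct4* (0.984) and *Fgfr1* (0.979) remained above it. Over all 12 libraries, where the group difference enters r, the closest genes were *Gjb2*, connexin 26 (0.987), *Snai2*, a transcription factor of mesenchymal cells (0.978), *Sema3d*, a secreted semaphorin (0.978), *Olfml2a* (0.977) and *Pla2g16* (0.976), which had an r of 0.979 to 0.989 without gmASTR replicate 5 and wmASTR replicate 3.

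The closest gene to *Wnt16* in gmASTRs was *Bend5* (r = 0.999 over 6 libraries), which encodes a BEN domain protein, at nearly the same level. *Bend5* was at 38.0, 62.7, 46.4, 88.5, 6.25 and 76.8 CPM in gmASTR replicates 1 to 6, in the same order of libraries as *Wnt16*. In wmASTRs the resemblance was partial. *Bend5* was highest in replicate 3 (9.57 CPM), like *Wnt16*, was at 0 CPM with it in replicate 2 and at 3.04 CPM in replicate 5, but had 7.00 CPM in replicate 1 and 1.86 CPM in replicate 6 without any *Wnt16* count, and 0 CPM in replicate 4, in which *Wnt16* had 17 counts. The next genes in gmASTRs were *Zfp428* (0.997), *Maged2* (0.996), *Shc1*, a signalling adaptor (0.995), and *Tpx2*, a mitotic spindle gene (0.992), and 103 genes (12.8%) had an r above 0.9. Without replicate 5 (n = 5) only 27 genes (3.35%) did, with r of 0.987 for *Bend5* and 0.957 to 0.977 for the other 4. Over all 12 libraries they were *Rasgrp2*, an exchange factor for Rap proteins (0.981), *Fam64a* (0.973), *Scd2*, a fatty acid desaturase (0.968), *Tk1*, thymidine kinase (0.966), and *Maged2* (0.961), and their r was 0.965 to 0.990 without gmASTR replicate 5 and wmASTR replicate 3.

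Some markers of leptomeningeal cells, *Cldn11* among them, moved with *Rspo2* across gmASTR libraries. Of 16 such markers, 9 had a name, and by edgeR's quasi-likelihood test (adjusted p below 0.05) 5 of these were higher in gmASTRs, 1 was lower and 3 were not called. Over all genes tested, 3.46% were higher and 4.28% lower, and over the genes with a name, which were listed mostly for a positive fold change, 22.5% and 7.00%. Their summed level was 2985 to 8388 CPM in gmASTRs and 1113 to 2015 CPM in wmASTRs, with gmASTR replicate 5 lowest and wmASTR replicate 3 highest in their groups, as for *Rspo2* and *Wnt16*. *Cldn11*, a tight junction claudin that oligodendrocytes also express, had a mean of 1842 ± 1433 CPM (SD, n = 6) in gmASTRs and 27.5 ± 27.9 CPM in wmASTRs, with 112 CPM in gmASTR replicate 5 and 79.4 CPM in wmASTR replicate 3. *Cdh1*, E-cadherin, was at 811 to 1315 CPM in the other gmASTR libraries, at 87.3 CPM in gmASTR replicate 5 and at 114 CPM in wmASTR replicate 3. Its second lowest gmASTR value, 811 CPM, was in replicate 4, where *Rspo2* and *Wnt16* were highest. The place of gmASTR replicate 5 in the sum changed without *Cldn11* and *Cdh1*: the other 7 markers, summed without them after their values were seen, gave 1959, 2412, 2828, 3803, 2786 and 2696 CPM in gmASTR replicates 1 to 6, where replicate 5 was above replicates 1, 2 and 6, and 1085 to 1822 CPM in wmASTRs, where replicate 3 was still highest. *Col3a1* alone gave 2171 of the 2786 CPM in gmASTR replicate 5, whereas *Foxd1*, *Foxc1* and *Igf2* were lowest in that library. The forkhead genes *Foxd1* and *Foxc1*, the growth factor gene *Igf2* and *Cldn11* had the same order of the 6 gmASTR libraries as *Rspo2*. That order was shared by 41 of the 5401 genes (0.759%), *Rspo2* included, and the order of *Wnt16* by 26 genes (0.481%), *Wnt16* included. Not all markers followed it, since *Col3a1*, *Aldh1a2* and *Crabp2* were not lowest in gmASTR replicate 5, at 2171, 47.2 and 71.1 CPM, and *Ptgds*, a prostaglandin D synthase, was lower in gmASTRs with a mean of 1.00 against 9.09 CPM. The part of leptomeningeal cells in the levels of *Rspo2* and *Wnt16* was not tested.

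**Figure D3:**
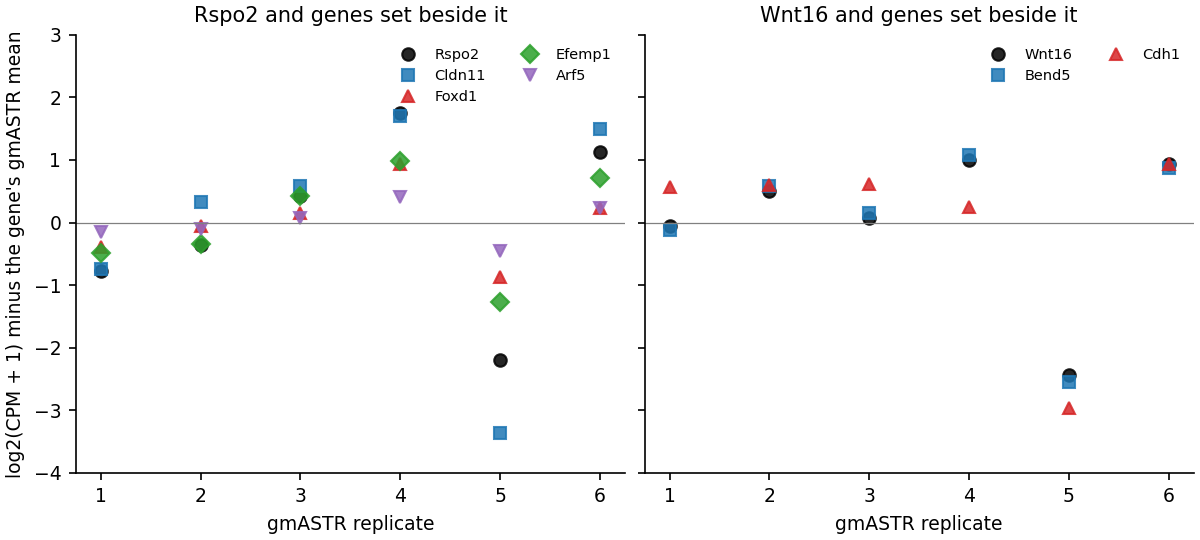
Level of *Rspo2* (left) and *Wnt16* (right) in the 6 gmASTR libraries with the genes set beside them, as log2(CPM + 1) minus the mean of each gene. Replicate 5 is the lowest library for all genes shown, *Bend5* follows *Wnt16* (r = 0.999), and *Arf5* follows *Rspo2* (r = 0.997) over a narrower range.

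Most markers of the other cell types with a name were lower in gmASTRs by the same test, against 7.00% of all genes with a name and 4.28% of all genes tested. The exceptions were *Tek*, which was not called, and *Syt1*, a synaptic vesicle gene, which was higher in gmASTRs without overlap. Summed levels of mural cell markers with a name (2 of 6) were 29.2 to 172 CPM in gmASTRs and 376 to 943 CPM in wmASTRs, and those of microglia (3 of 6) were 3.48 to 48.4 and 76.5 to 253 CPM. Oligodendrocyte markers (3 of 6) did not exceed 4.25 CPM in any gmASTR library and lay between 9.15 and 53.3 CPM in wmASTRs. *Ttr*, the only choroid plexus marker with a name of 6, went up to 3.98 CPM among gmASTRs and to 376 CPM among wmASTRs. The endothelial marker *Tek* was at most 5.65 CPM in any library, and neuronal markers (2 of 6) summed to 14.9 to 34.5 CPM in gmASTRs and 13.1 to 39.4 CPM in wmASTRs. This sum joins opposite differences, since *Syt1* had a mean of 18.3 CPM in gmASTRs and 4.19 CPM in wmASTRs (edgeR adjusted p = 0.004) and the tubulin gene *Tubb3* 4.70 and 16.6 CPM (edgeR adjusted p = 0.009). Of the astrocyte markers with a name (5 of 10), none was higher and 3 (*Gfap*, *Aqp4* and *Slc1a3*) were lower in gmASTRs by edgeR, where 7.00% of all genes with a name were lower. Their summed levels were 6445 to 8754 CPM in gmASTRs, highest in replicate 5, and 4687 to 7980 CPM in wmASTRs. Nearly all of this sum was *Gja1* and *Vim*, at 5467 and 3274 CPM in gmASTR replicate 5, where *Gfap* and *Aqp4* were at 0 CPM. *Vim* was not called (edgeR adjusted p = 0.159), although its gmASTR libraries (2590 to 3274 CPM) were all above its wmASTR libraries (2171 to 2439 CPM). The part of these cell types in the levels of the pair was not tested.

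**Figure D4:**
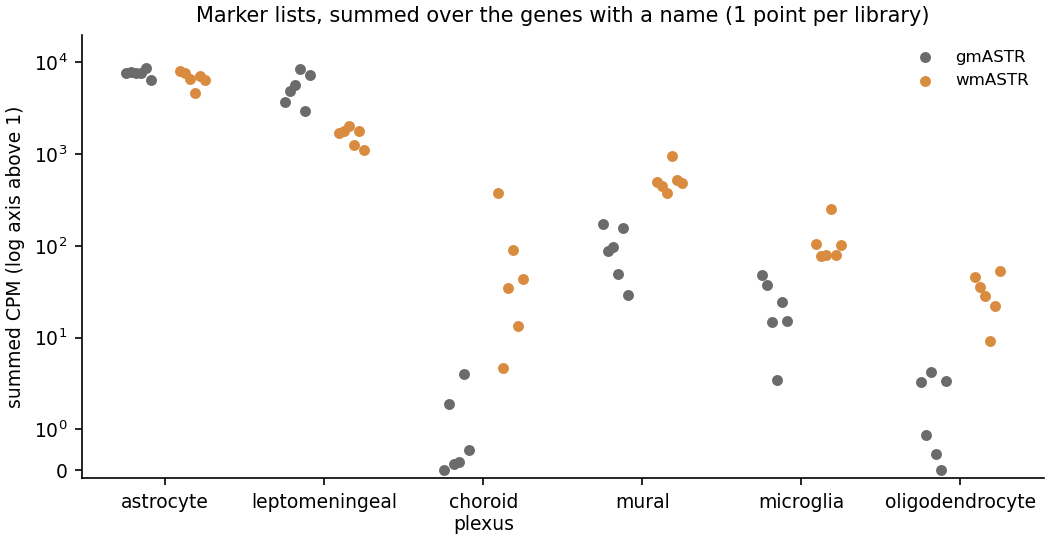
Summed CPM of the markers with a name for each cell type, 1 point per library, on an axis that is logarithmic above 1 and linear below. Leptomeningeal markers are higher in every gmASTR library (2985 CPM or more) than in any wmASTR library (2015 CPM or less), and mural, microglial, oligodendrocyte and choroid plexus markers are higher in every wmASTR library.

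The rest of the Wnt pathway was examined through 78 other listed genes, of which 15 could be paired with a name. Names were at hand mostly for genes with a positive fold change (91.3% of the 2085 genes with a name), so the counts below are no sign of the direction of the pathway. Of the 15 genes, 7 were higher in gmASTRs, 1 was lower and 7 were not called by edgeR's quasi-likelihood test (adjusted p below 0.05 over all genes tested). Among all 15478 genes tested, 535 (3.46%) were higher and 662 (4.28%) were lower, and among genes with a name 22.5% were higher and 7.00% lower. The median log2 fold change was 1.30 over the 15 genes, 0.69 over genes with a name and -0.03 over all genes tested. Without gmASTR replicate 5 and wmASTR replicate 3, 8 were higher and 1 was lower, and of all 15091 genes tested in that fit 4.68% were higher and 5.65% lower. Only 4 were higher by limma-voom, after filterByExpr, without wmASTR replicate 6, and in the smaller table of the study, where low genes have no value. No listed intracellular component and no Lgr receptor or Znrf3/Rnf43 ligase had a name, and these were not analysed here.

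Among the other R-spondins, *Rspo3* was higher in gmASTRs. It ranged from 0.189 CPM in replicate 5 to 18.7 CPM in gmASTRs (median 10.6) and from 0 to 3.16 CPM in wmASTRs (median 0.800), with a log2 fold change of 2.75 ± 0.84 (SE, adjusted p = 0.042). The groups overlapped, and leaving out each of the 12 libraries in turn ended the call in 8 fits, with an adjusted p of up to 0.123. It was also lost by limma-voom (adjusted p = 0.115) and after filterByExpr (edgeR adjusted p = 0.054). *Rspo1* was at 14.6 to 31.1 CPM in gmASTRs (median 21.8) and 6.71 to 30.0 CPM in wmASTRs (median 12.6), with a log2 fold change of 0.53 ± 0.29 (SE, edgeR adjusted p = 0.270). It was 0.85 (edgeR adjusted p = 0.080) without wmASTR replicate 3, and 0.93 (adjusted p = 0.039) without both wmASTR replicate 3 and gmASTR replicate 5. All 3 R-spondins were lowest of the gmASTR libraries in replicate 5, and *Rspo1*, like *Rspo2*, was highest of the wmASTR libraries in replicate 3. Their fold changes were of different size, from 0.53 for *Rspo1* to 5.76 for *Rspo2* on the log2 scale.

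None of the 3 other Wnt ligands with a name was called in the fit without a block. *Wnt7b*, a ligand of vascular development in the brain, had the highest mean of these in gmASTRs, with 2.46 to 24.2 CPM (median 16.2) against 0 to 15.0 CPM in wmASTRs (median 0.906) and a log2 fold change of 1.89 ± 0.75 (SE, edgeR adjusted p = 0.131). Its lowest gmASTR value was in replicate 5 and its highest wmASTR value in replicate 3, as for the pair, but its second lowest gmASTR value, 3.29 CPM, was in replicate 4, where *Rspo2* and *Wnt16* were highest. *Wnt7b* was called without wmASTR replicate 3 (log2 fold change 3.30, edgeR adjusted p = 0.005), without this library and gmASTR replicate 5 (3.51, adjusted p = 0.000526), and in a fit with a replicate block (2.68, adjusted p = 0.025). *Wnt5b* had log2 fold change 0.77 (edgeR adjusted p = 0.346) and *Wnt6* 1.68 (adjusted p = 0.356), at means of 10.6 and 3.10 CPM in gmASTRs. These ligands fall outside the rule for named genes and complete the list. *Wls*, the carrier that takes Wnt proteins to the cell surface for release, was higher in gmASTRs without overlap, with 209 to 371 CPM (median 244) against 148 to 184 CPM (median 157) and a log2 fold change of 0.62 ± 0.13 (SE, edgeR adjusted p = 0.003).

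Neither of the 2 Frizzled receptors with a name was called. *Fzd2* had a mean of 77.2 ± 15.3 CPM (SD, n = 6) in gmASTRs and 76.9 ± 17.1 CPM (n = 6) in wmASTRs, with a log2 fold change of -0.06 ± 0.17 (SE, edgeR adjusted p = 0.874), which turned to 0.0059 without TMM normalization. *Fzd3* was at 20.0 ± 5.32 and 13.6 ± 3.87 CPM, with a log2 fold change of 0.48 (edgeR adjusted p = 0.277).

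Of 13 listed secreted inhibitors of Wnt signalling, 4 had a name, and 3 of these were higher and 1 lower in gmASTRs, beside 22.5% and 7.00% of all genes with a name. *Dkk2*, a ligand of the Lrp co-receptors, was at 1.21 to 15.8 CPM in gmASTRs (median 5.20) and 0 to 1.73 CPM in wmASTRs (median 0), and was higher in gmASTRs by 4.09 ± 0.99 on the log2 scale (SE, edgeR adjusted p = 0.008). Of its 15 wmASTR counts 12 were in replicate 5, and the log2 fold change was 5.87 (adjusted p = 0.000938) without that library. *Sfrp4*, which binds Wnt proteins, was at 0.379 CPM in gmASTR replicate 5 and up to 97.8 CPM in the other gmASTR libraries (median of all 42.5), against 1.66 to 15.3 CPM in wmASTRs (median 4.42). It was higher in gmASTRs by 2.77 ± 0.59 on the log2 scale (SE, edgeR adjusted p = 0.003), and by 3.03 (edgeR adjusted p = 2.6e-06) without gmASTR replicate 5, though limma-voom gave an adjusted p of 0.430. *Sfrp4* thus had gmASTR replicate 5 and wmASTR replicate 3 at the same ends as *Rspo2* and *Wnt16*. *Frzb*, a related Wnt-binding protein, had its highest level of 68.4 CPM in gmASTR replicate 5, and its log2 fold change of 0.99 ± 0.30 (SE, edgeR adjusted p = 0.043) fell to 0.63 (adjusted p = 0.151) without that library. Its call was lost in 6 of 12 fits when single libraries were left out, and also by limma-voom (adjusted p = 0.175) and after filterByExpr (edgeR adjusted p = 0.052). *Dkk3*, a divergent member of the Dickkopf family, was the only lower gene, with 165 to 234 CPM in gmASTRs (median 218) and 266 to 334 CPM in wmASTRs (median 323), and a log2 fold change of -0.59 ± 0.12 (SE, edgeR adjusted p = 0.001).

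Of 10 listed Wnt targets and feedback regulators, 3 had a name, and 2 of these were higher in gmASTRs, beside 22.5% of the genes with a name, most of which were listed for a positive fold change, and 3.46% of all genes. *Ccnd1*, cyclin D1, was at 97.4 to 613 CPM in gmASTRs (median 353) and 44.7 to 262 CPM in wmASTRs (median 119), with a log2 fold change of 1.30 ± 0.31 (SE, edgeR adjusted p = 0.008). Its lowest gmASTR library was again replicate 5. *Dact2*, a Dishevelled-binding regulator, was at 2.46 to 14.6 CPM in gmASTRs (median 4.87) and 0 to 2.29 CPM in wmASTRs (median 0.166), with a log2 fold change of 3.19 ± 0.93 (SE, edgeR adjusted p = 0.031). When each of the 12 libraries was left out in turn, *Dact2* lost its call in 6 fits, and its adjusted p was 0.134 without gmASTR replicate 2. *Tnfrsf19*, a receptor of the tumour necrosis factor family, was not called, with a log2 fold change of 1.39 ± 0.48 (SE, edgeR adjusted p = 0.077) and its highest level, 27.7 CPM, in gmASTR replicate 5. It was called by DESeq2 (adjusted p = 0.047), without gmASTR replicate 2 (edgeR adjusted p = 0.046) and without wmASTR replicate 1 (edgeR adjusted p = 0.026).

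**Figure D5:**
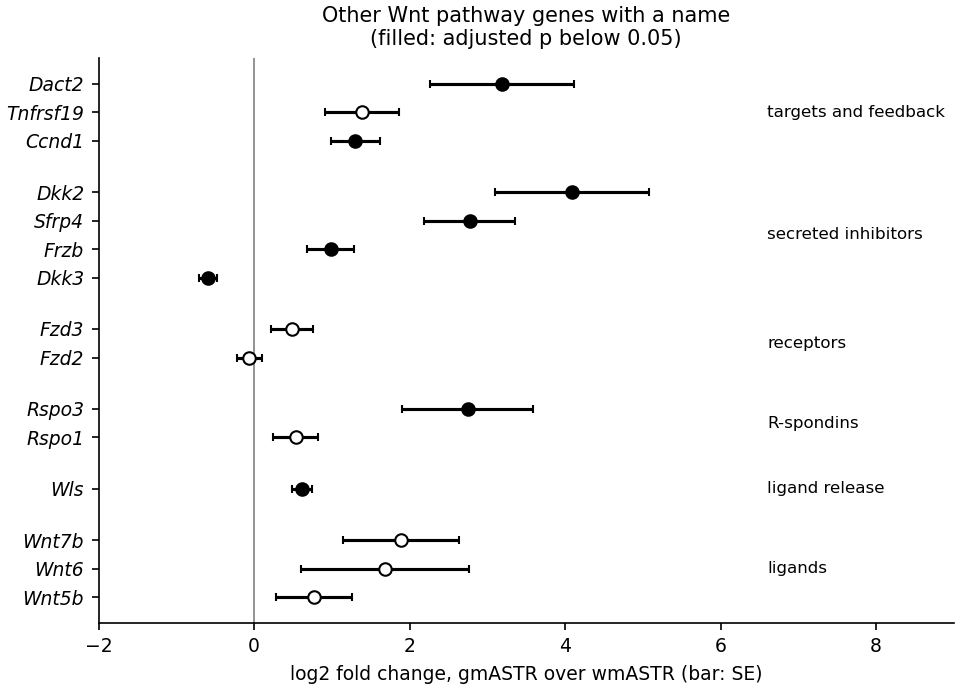
Log2 fold change of gmASTRs over wmASTRs (points) with its standard error (bars) for the 15 other Wnt pathway genes with a name, grouped by role. Filled points have an adjusted p below 0.05 in edgeR's quasi-likelihood test, 7 of them above 0 and 1 (*Dkk3*) below it.

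The position of gmASTR replicate 5 and wmASTR replicate 3 was examined over all genes of at least 20 CPM in gmASTRs. Of these 5401 genes, 238 (4.41%) had every gmASTR library above every wmASTR library. Replicate 5 was the lowest gmASTR library for 110 of them (46.2%), and replicate 3 was the highest wmASTR library for 86 (36.1%). Both libraries were at these ends for 47 of the 238 genes, *Rspo2* and *Wnt16* included. *Cldn11*, *Foxd1*, *Efemp1* and *Gjb2*, described above, were among these.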

How the data were processed

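RNA of 12 cultures was sequenced as QuantSeq 3′ libraries, in which 1 read stands for 1 transcript end, so levels were not divided by gene length. Per the labels and the methods of the study, the authors used fastQC for read quality, HISAT (0.1.5) for alignment, SAMtools (1.2) for sorting and HTSeq (0.6.1p1) for counting over Ensembl genes in union mode without strand, so antisense reads cannot be told apart. The labels name a mouse build for these rat data, so the build on which reads were counted is uncertain, and the 1 position given is that of the RefSeq table (GRCr8). The authors deposited raw counts per gene, and use of molecular identifiers is not stated.

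CPM were computed from the deposited counts and library totals. The fit used edgeR (4.0.16) in R (4.3.3), TMM normalization, the quasi-likelihood test with a prior count of 0.125 and region as the only term, over 15478 genes with at least 1 count, and Benjamini-Hochberg adjustment with calls below 0.05. The fit gives no standard error of its own, so the one printed is the absolute log2 fold change divided by the square root of the quasi-likelihood F statistic. Tests ran on simulated counts first. Exact permutation tests used SciPy (1.17.1), and Poisson intervals are 95%. Names came from the supplementary gene lists of the study: 2000 were printed there with the Ensembl identifier, and 85 were matched through the CPM values of the 12 libraries (within 0.3%, unique matches). Genes named were the pair, Wnt pathway genes past the threshold, the most abundant gene of each role, and the 5 genes most like each member. *Wnt5b*, *Wnt6*, *Fzd3* and *Tnfrsf19* were added after their values were seen, to complete the list, as were the marker genes given with values.

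The pair, the Wnt list, the marker lists and the tests were chosen with earlier results of these data known. Alternatives were DESeq2 (1.42.0), limma-voom (3.58.1), other scaling and filters, the replicate number as a block, and leaving out each library.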

Additional observations from a re-analysis of the deposited data

Results flagged for a closer look

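With 6 libraries per group, the highest or lowest library of a group was set against the others by Dixon's test on CPM without logarithm. 50 groups were tested and 9 had a library that stood apart. Chance gives about 1 in 20 only for independent groups of normally distributed values. CPM near 0 are skewed and some flags share a library, so the number flagged cannot be read against that rate. *Rspo2* was at 13.2 CPM in wmASTR replicate 3 against 0 to 3.66 CPM in the other wmASTR libraries. In the same library *Wnt7b* was at 15.0 CPM against 0 to 4.34 CPM. *Wnt16* had no library that passed this test on CPM, and gmASTR replicate 5 passed it for neither *Rspo2* nor *Wnt16*. On CPM a low library can hardly stand apart from widely spread higher ones. The test was not run on log2(CPM + 1), the scale of the SD above, where its outcome can differ. *Dkk2* was at 1.73 CPM in wmASTR replicate 5 against 0 to 0.416 CPM. *Dact2* was at 14.6 CPM in gmASTR replicate 2 against 2.46 to 6.57 CPM. *Dkk3* was at 165 CPM in gmASTR replicate 6 against 216 to 234 CPM. Among marker sums, mural (943 CPM against 376 to 523), microglial (253 CPM against 76.5 to 104) and neuronal markers (39.4 CPM against 13.1 to 19.1) stood apart in wmASTR replicate 4, and the choroid plexus marker *Ttr* (376 CPM against 4.65 to 88.9) in wmASTR replicate 1.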

How the results depend on the processing

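The number of Wnt pathway genes higher in gmASTRs, 7 of 15, was 4 in the filtered table of the study, where low genes have no value, 4 after filterByExpr and 4 by limma-voom, and 4 to 7 when 1 library was left out (4 without wmASTR replicate 6). 1 gene was lower under every alternative run. By limma-voom the log2 fold change was 6.16 for *Wnt16* and 6.90 for *Rspo2*. Leaving out 1 library at a time gave 5.30 to 6.91 for *Rspo2*, 4.25 to 5.23 for *Wnt16*, an r of 0.815 to 0.941 in gmASTRs and of -0.226 to 0.675 in wmASTRs, where the sign changed without replicate 3, and -0.166 to 0.0259 for *Fzd2*, which was 0.00589 without TMM normalization. Leaving out gmASTR replicate 5 and wmASTR replicate 3 together, chosen after seeing the data as were the spread and likeness without replicate 5, gave 7.13 for *Rspo2* and 5.46 for *Wnt16*. *Rspo2* and *Wnt16* have no value in the filtered table. Of 294 alternative values for single Wnt genes, 258 kept direction and call, 26 lost the call, 7 gained it and 3 changed sign, all of *Fzd2*. The causes were not tested.

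A fit with a replicate block called 8 of the 15 genes higher and 1 lower, with a changed call for *Wnt7b* only, and the log2 fold change was 5.73 for *Rspo2* and 4.73 for *Wnt16*. Over all genes, this replicate block called 535 higher and 766 lower. Same-numbered libraries had correlations of -0.0236 to 0.00738, and 0 of 12 libraries correlated best with their own number, so the numbers were not taken as pairs.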
